A study of Mus musculus with 4 samples.

Results

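The genes examined here are 41 genes of the cell cycle and of DNA replication, fixed by name: 16 S phase genes, 18 mitotic genes, the 3 D cyclins with their 2 kinase partners, and 2 inhibitors of cyclin-dependent kinases (CDKs). 37 of them had at least 1 named probe on the array (67 probes of 25697), and 32 had a probe that could be tested, out of 9502 genes tested in all. Expression was measured on 4 Illumina bead arrays in whole livers of mice at postnatal day 1 on a mixed B6;129 background. The DKO livers (2 arrays) carried the genotype Lats1-/-;Lats2f/fl;Alb-cre, with no Lats1 in any cell and a floxed Lats2 that is deleted in cells expressing an albumin-driven Cre recombinase; the control livers (2 arrays) were labelled wild type. By this design, blood cells, vessels and stroma of the DKO livers lacked Lats1 but kept Lats2. All pups had the same mothers and are labelled female. Whether each array holds its own animal is not stated in the labels, and the p-values therefore describe no more than the spread among these 4 samples, part of which may be technical.

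Cells enter the cycle when a D cyclin bound to CDK4 or CDK6 phosphorylates the retinoblastoma protein and so frees the E2F transcription factors, which switch on cyclin E and the genes of DNA synthesis. Cyclin A, cyclin B and CDK1 then drive the G2 phase and mitosis, with FOXM1 as a main transcriptional activator, while INK4 and CIP/KIP proteins block the kinases. LATS1 and LATS2 are kinases of the Hippo pathway that restrain YAP and TAZ, co-activators known for raising cell number in the liver. The liver at birth is still a site of blood formation, so that its dividing cells include blood precursors besides hepatocytes and bile duct cells. In whole-liver RNA, fewer cells of a type and less RNA per cell cannot be told apart.

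The members fall into an E2F group and a mitotic group whose promoters are known to carry different control elements, so 4 promoters are shown first, chosen as 2 of each kind. They are the 250 bases before the transcription start in the RefSeq annotation of GRCm38.p6, read 5′ to 3′ on the strand of the gene. Capitals mark the E2F word TTTNNCGC, the cell cycle homology region words TTTGAA and TTTAAA, and the word CCAAT, each searched on both strands. Cdc6, which helps to load the replicative helicase, is on chr11:98907901-98908150 (plus strand), and Mcm5, a subunit of that helicase, on chr8:75109259-75109508 (plus strand). Cdk1, the mitotic kinase, is on chr10:69352913-69353162 (minus strand), and Top2a, the topoisomerase that untangles chromosomes, on chr11:99024190-99024439 (minus strand).
Cdc6: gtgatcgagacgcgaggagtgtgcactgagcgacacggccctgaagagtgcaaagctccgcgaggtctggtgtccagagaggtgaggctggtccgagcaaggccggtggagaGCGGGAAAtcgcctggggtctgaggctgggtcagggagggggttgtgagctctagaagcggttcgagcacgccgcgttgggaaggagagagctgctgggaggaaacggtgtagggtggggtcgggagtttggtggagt
Mcm5: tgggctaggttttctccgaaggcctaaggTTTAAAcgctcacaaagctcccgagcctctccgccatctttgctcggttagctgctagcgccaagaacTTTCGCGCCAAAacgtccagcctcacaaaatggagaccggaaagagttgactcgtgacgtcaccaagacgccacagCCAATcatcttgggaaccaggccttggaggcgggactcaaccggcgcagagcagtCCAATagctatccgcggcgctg
Cdk1: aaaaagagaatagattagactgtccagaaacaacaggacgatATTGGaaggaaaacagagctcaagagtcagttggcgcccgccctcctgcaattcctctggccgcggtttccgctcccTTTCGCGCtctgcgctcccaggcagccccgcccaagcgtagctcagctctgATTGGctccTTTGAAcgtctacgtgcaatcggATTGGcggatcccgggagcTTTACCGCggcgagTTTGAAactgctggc
Top2a: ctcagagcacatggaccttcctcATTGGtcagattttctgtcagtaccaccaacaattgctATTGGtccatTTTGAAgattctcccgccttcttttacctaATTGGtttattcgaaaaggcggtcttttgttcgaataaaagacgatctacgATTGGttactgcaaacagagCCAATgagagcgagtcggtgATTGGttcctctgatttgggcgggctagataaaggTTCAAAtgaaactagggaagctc
The Cdc6 stretch held 1 E2F word and no match to the other motifs. The Mcm5 stretch held 2 E2F words that overlap, with first bases at -153 and -149 from the start, as well as 1 homology region word and 2 CCAAT words. The Top2a stretch held no E2F word but 6 CCAAT words and 2 homology region words, and the Cdk1 stretch held all 3 motifs.

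Shares were taken over windows from 250 bases before to 50 bases after the start (32 members used, some with more than 1 window). Any member window on chromosome 18, where Kif20a lies, was left out, while the windows of all genes were kept. The E2F word was present in 7 of 15 S phase windows (46.7%) and in 1 of 13 mitotic windows (7.69%, Cdk1), against 5.17% of the 32851 windows of all genes. The homology region words were present in 5 of 15 S phase windows (33.3%) and in 12 of 13 mitotic windows (92.3%), against 27.6% of all windows. CCAAT was present in 9 of 15 S phase windows (60%) and in 12 of 13 mitotic windows (92.3%), against 37.4% of all windows. Thus the E2F word was the commoner in S phase promoters and the homology region words in mitotic ones, as a description of letters and not of binding.

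Between 12514 and 13641 probes (48.7% to 53.1%) were detected per array, and the number of arrays limits the precision. Control replicate 2 went against its label of female, since the Y-linked Eif2s3y read 11.31 there (normalized log2 intensity) against 4.69 to 4.94 on the other 3 arrays. Both probes of Xist, an RNA of female cells, were low there, at 5.16 and 5.85, against 8.36 to 9.86 on the other 3. Members whose log2 change turned or moved by over 1.5 times without control replicate 2 are given below with that value. What set this array apart was not tested further. The Lats2 probe read 6.53 and 6.06 in DKO livers, against 5.92 and 5.47 in controls (log2 change 0.60, SE 0.37, adjusted p = 0.53 by limma with Benjamini-Hochberg adjustment). No source used here places this probe relative to the deleted part of the gene, so it does not check the genotype, and Lats1 had no named probe. Of the liver markers, 6 of 10 tested biliary markers passed as higher in DKO livers, led by Cldn4, Krt7 and Krt19. Their changes were positive for 9 and negative for 1, Cd24a (-0.95, SE 0.35). Of 15 tested hepatocyte markers, 6 passed as lower, led by Cyp2e1, Cyp3a11 and Asgr1. Their changes were negative for 14 and positive for 1, Ttr (0.025), and that of Apoa1 was small (-0.082). Over all genes, 1.75% passed as higher and 1.68% as lower.

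At the level of genes, each read by its brightest tested probe, 0 of the 32 members passed an adjusted p of 0.05 in either direction (limma, Benjamini-Hochberg over all 13654 tested probes). Over all 9502 genes tested, 166 (1.75%) were called higher and 160 (1.68%) lower in DKO livers. At an unadjusted p under 0.05 in limma's fit there were 3 of the 32 members, Ccnd1 above the controls and Cdc6 and Cdkn2c below them. This was a smaller share than the 16.1% of all genes. Of the 50 tested member probes, 1 was called, a probe of Ccnd1 that was higher in DKO livers, against 1.63% of all probes called higher. The median standard error of a member's log2 change was 0.38, and the called genes had changes of at least 1.69 in either direction. A log2 change is given as DKO minus control throughout, and 1 unit is a doubling.

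Cyclin D1 (Ccnd1, on chromosome 7), the regulatory subunit through which growth signals start the cycle, was the member that stood out. Its brightest probe (ILMN_1221503) read 11.07 and 12.52 in DKO livers, against 9.29 and 9.77 in controls. Both DKO arrays were thus above both controls, and the deposited intensities were 2286 and 5795 in DKO livers, against 874.7 and 935 in controls. The mean was 11.80 ± 1.02 in DKO livers and 9.53 ± 0.34 in controls (SD, n = 2 each), a log2 change of 2.27 (SE 0.52) or 4.82-fold that missed the threshold (adjusted p = 0.072 by limma). A second probe (ILMN_2601471) read 10.63 and 12.13 in DKO livers, against 9.04 and 9.52 in controls. It kept the order of the arrays seen with the first, with a log2 change of 2.10 (SE 0.53, adjusted p = 0.097 by limma). The third probe (ILMN_2669793) read 9.37 and 9.18 in DKO livers, against 7.56 and 6.38 in controls. Here DKO replicate 1 was the brighter of the DKO arrays, and the log2 change of 2.31 (SE 0.45) passed (adjusted p = 0.043 by limma). All 3 probes thus gave a difference of similar size with no overlap of the groups, whereas the call depended on the probe: the mean of the 3 probes gave 2.23 and an adjusted p of 0.027 by limma. Without DKO replicate 1, its brightest probe passed, with a log2 change of 2.99 (adjusted p = 0.0016 by limma). Without any other single array it did not pass, with log2 changes of 1.55 to 2.51.

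Cyclin D2 (Ccnd2), a second D cyclin, had the largest difference of the group means and the widest spread. It read 11.54 and 8.64 in DKO livers, against 9.08 and 5.96 in controls. The last value, of control replicate 2, was little above the lowest values detected on the arrays (5.46 to 5.68). The groups overlapped, since the lower DKO array was below the higher control, and in each group replicate 1 read far above replicate 2. The log2 change was 2.57 (SE 1.17, 95% confidence interval -0.17 to 5.32, adjusted p = 0.37 by limma). It was 1.77 without background correction. Without DKO replicate 2 it passed (4.02, adjusted p = 0.0068 by limma). Without any other single array it ranged from 1.01 (control replicate 2 left out) to 4.13 (control replicate 1 left out) and did not pass.

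Cyclin D3 (Ccnd3), which acts in blood cells as well as in other tissues, had a small difference. It read 12.28 and 12.68 in DKO livers, against 12.62 and 12.82 in controls (log2 change -0.24, SE 0.35, 95% confidence interval -1.06 to 0.57). Its other tested probes gave -0.38 (SE 0.39) and -0.056 (SE 0.46), and the groups overlapped in all 3. Without control replicate 2 the first of these was -0.14. Of the kinase partners, Cdk4 had no named probe. Cdk6 was not tested, since it was detected on 1 array, DKO replicate 2, at 5.91. The other Cdk6 readings were 5.15 in DKO replicate 1, against 5.13 and 5.50 in controls, all without detection.

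**Figure D1:**
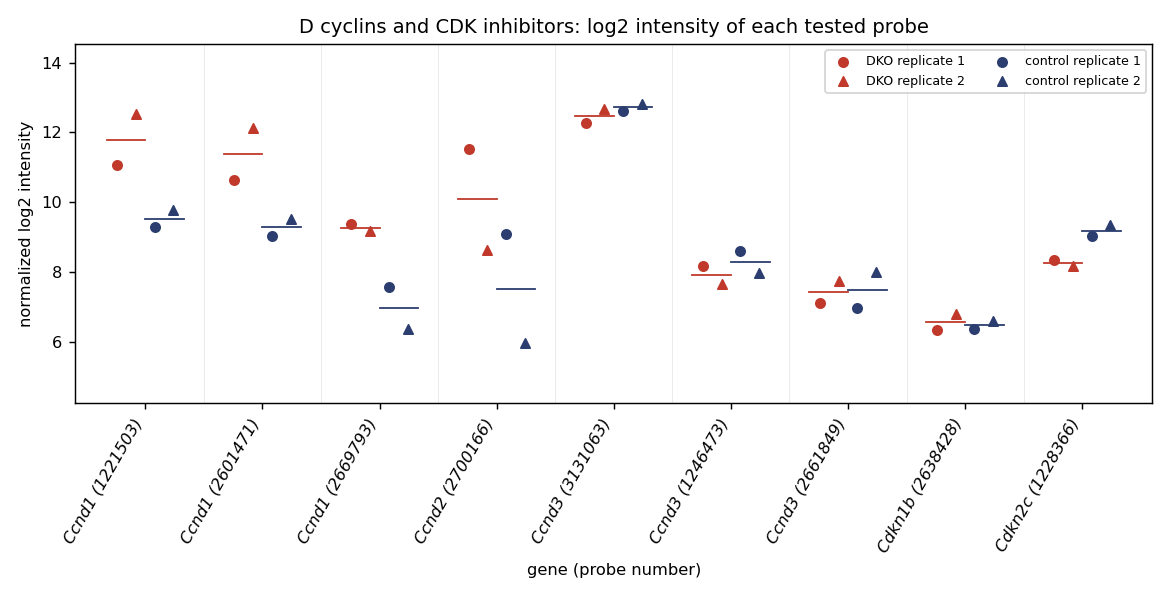
Normalized log2 intensity of each tested probe of the D cyclins and CDK inhibitors (x axis, gene and probe number) on each array; points are arrays and short lines group means. The 3 Ccnd1 probes lie higher on both DKO arrays (9.18 to 12.52) than on the control arrays of the same probe (6.38 to 9.77), while Ccnd2 spans 5.96 to 11.54 with overlapping groups.

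The 2 inhibitors among the members behaved differently from each other. Cdkn2c, which encodes the INK4 protein p18 that binds CDK4 and CDK6, read 8.34 and 8.17 in DKO livers, against 9.02 and 9.34 in controls. Both DKO arrays were below both controls, with a log2 change of -0.93 (SE 0.34), which had an unadjusted p of 0.029 in limma's fit and an adjusted p of 0.25. Cdkn1b, which encodes p27 and blocks CDK2 complexes, read 6.34 and 6.80 in DKO livers, against 6.38 and 6.61 in controls. The groups overlapped, with a log2 change of 0.075 (SE 0.35, 95% confidence interval -0.76 to 0.90; 0.19 without control replicate 2). Of 5 further tested inhibitors 0 passed by limma. At an unadjusted p under 0.05 in limma's fit there was 1 of these 5 inhibitors, against 16.1% of all genes. It was Cdkn1c, which encodes p57, an imprinted growth inhibitor. Cdkn1c read 14.57 and 14.40 in DKO livers, against 12.19 and 13.45 in controls (log2 change 1.67, SE 0.47, adjusted p = 0.13 by limma). The next largest of them was Cdkn2d, the p19 INK4 gene, at -0.54 (SE 0.36). Across these inhibitors both signs were present.

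All 16 S phase members were tested, each detected on all 4 arrays. As a group they read lower in DKO replicate 1 and close to the controls in DKO replicate 2. 14 of the 16 log2 changes were negative and 2 positive (16 and 0 under median scaling), with a median of -0.43 and a range of -1.19 to 0.014, against a median of 0.0044, quartiles of -0.37 and 0.37, and 49.7% negative over all genes. 4 of the 16 (25%) had both DKO arrays below both controls, against 22.8% of all genes, and 0 had both above, against 22.7%. DKO replicate 1 was the lowest of the 4 arrays for 14 of the 16 genes, while DKO replicate 2 was below both controls for 6. Without DKO replicate 1, 10 of 16 changes were negative and the median was -0.14; without DKO replicate 2, 14 were negative and the median was -0.90. Without control replicate 2, 13 were negative and the median was -0.49. Of all 24 tested S phase probes, 21 had a negative change.

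Cdc6, whose protein loads the MCM helicase at origins together with CDT1, had the largest difference of the S phase genes. It read 9.35 and 9.66 in DKO livers, against 10.67 and 10.70 in controls. Each group was narrow, with means of 9.50 ± 0.22 in DKO livers and 10.69 ± 0.02 in controls (SD, n = 2 each). The log2 change of -1.19 (SE 0.34), 2.28-fold lower, had an unadjusted p of 0.0093 in limma's fit and did not pass after adjustment (adjusted p = 0.14). A second Cdc6 probe read 6.08 and 6.46 in DKO livers, against 6.53 and 6.35 in controls, with a log2 change of -0.17 (SE 0.35). The size of the difference was thus not shared by both probes, and 2 further Cdc6 probes were detected on no array. Cdt1, its partner in licensing, read 11.27 and 11.53 in DKO livers, against 12.00 and 11.44 in controls, with DKO replicate 2 between the controls (log2 change -0.32, SE 0.37).

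Mcm2 to Mcm7 encode the 6 subunits of the replicative helicase. Mcm5 read 11.44 and 12.09 in DKO livers, against 12.42 and 12.32 in controls (log2 change -0.61, SE 0.37). Mcm4 read 11.83 and 12.46 in DKO livers, against 12.93 and 12.53 in controls (log2 change -0.59, SE 0.38). For these 2 subunits the groups did not overlap, with DKO replicate 2 just under the lower control in Mcm4. Mcm2 read 8.76 and 10.50 in DKO livers, against 9.64 and 10.78 in controls (log2 change -0.58, SE 0.64). Mcm6 read 12.03 and 12.90 in DKO livers, against 13.03 and 12.85 in controls (log2 change -0.47, SE 0.40), and its 3 other tested probes gave -0.38 to -0.14. Mcm7 read 8.20 and 7.42 in DKO livers, against 8.85 and 7.48 in controls, and was an exception to the low reading of DKO replicate 1 (log2 change -0.35, SE 0.53). Mcm3 read 6.36 and 8.24 in DKO livers, against 7.17 and 7.40 in controls, the DKO arrays lying on either side of both controls. Its log2 change of 0.014 (SE 0.59) was -0.033 under median scaling, which lowered the median of all genes to -0.055. For the complex as a whole, then, 5 of 6 subunits had negative changes and none passed.

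The genes of nucleotide supply included the member with the second largest negative difference. Rrm1, the large subunit of ribonucleotide reductase, read 7.92 and 8.74 in DKO livers, against 8.97 and 9.60 in controls. The groups did not overlap (log2 change -0.96, SE 0.43, 95% confidence interval -1.96 to 0.043, adjusted p = 0.36 by limma). Rrm2, the small subunit made in S phase, read 10.09 and 11.37 in DKO livers, against 10.96 and 11.28 in controls. Its log2 change was -0.39 (SE 0.48), and DKO replicate 2 was the highest array. A second Rrm2 probe read 9.06 and 9.87 in DKO livers, against 10.04 and 9.96 in controls, with no overlap of the groups (log2 change -0.53, SE 0.39). Thymidine kinase 1 (Tk1), which salvages thymidine, read 10.19 and 10.66 in DKO livers, against 10.55 and 11.02 in controls (log2 change -0.36, SE 0.37). Thymidylate synthase (Tyms), which makes thymidylate, read 9.92 and 10.30 in DKO livers, against 9.94 and 10.27 in controls, a log2 change of 0.0033 (SE 0.35). Tyms was the 1 member whose tested probes differed in sign, at 0.0033, 0.064 and -0.29, and its change was -0.085 under median scaling.

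Pcna, the sliding clamp of the replicative polymerases, read 10.66 and 11.11 in DKO livers, against 10.98 and 11.53 in controls (log2 change -0.37, SE 0.38). E2f1, the E2F factor that activates much of this group, read 9.49 and 10.13 in DKO livers, against 9.72 and 10.50 in controls (log2 change -0.30, SE 0.42). For both genes DKO replicate 1 was the lowest array and DKO replicate 2 lay between the controls. Ccne1, 1 of the 2 cyclin E genes, read 6.69 and 8.34 in DKO livers, against 7.94 and 8.08 in controls (log2 change -0.49, SE 0.55). Ccne2 read 8.03 and 6.71 in DKO livers, against 8.67 and 7.20 in controls (log2 change -0.57, SE 0.62). In the cyclin E genes the groups overlapped, and the lower DKO array was replicate 1 for Ccne1 and replicate 2 for Ccne2. Several S phase values moved without control replicate 2, and 0 passed by limma then. The log2 change came closer to 0 for Mcm2 (-0.012), Pcna (-0.092), Tk1 (-0.13), Rrm1 (-0.64) and Rrm2 (-0.23). It was further below 0 for Mcm7 (-1.04), Ccne2 (-1.30) and Cdt1 (-0.60), and above 0 for E2f1 (0.089), Mcm3 (0.13) and Tyms (0.17).

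**Figure D2:**
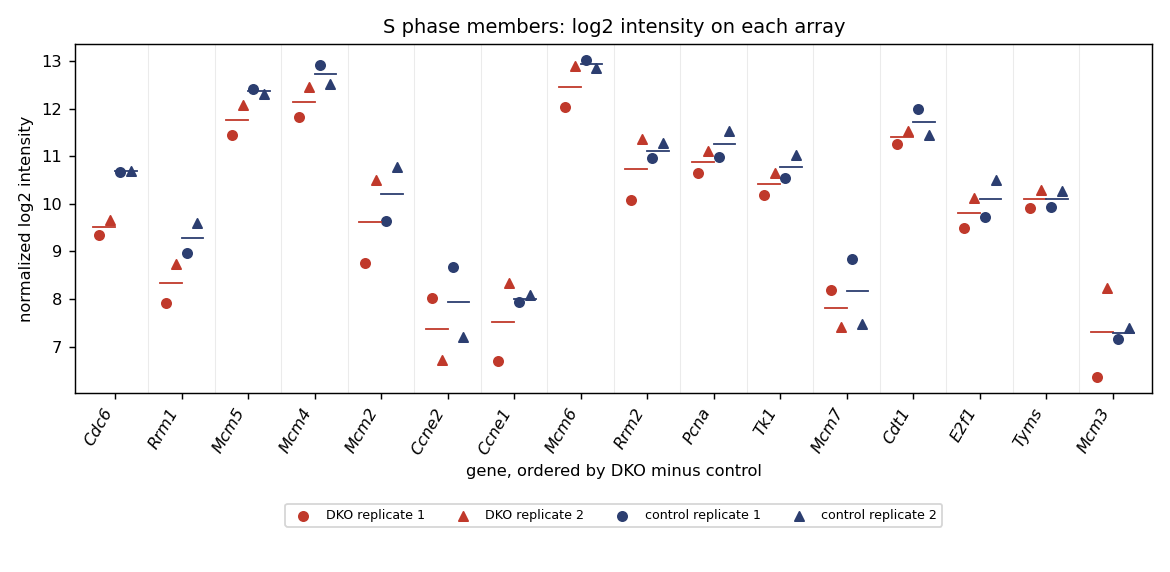
Normalized log2 intensity of the 16 S phase genes (x axis, ordered by DKO minus control) on each array; points are arrays and short lines group means. DKO replicate 1 is the lowest point for 14 of the 16 genes, and Cdc6 at the left has both DKO arrays (9.35 and 9.66) below both controls (10.67 and 10.70).

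Of the 18 mitotic members, 11 were tested. Mki67, Ccnb1 and Aurkb had no named probe, and the single probes of Ccnb2, Bub1, Cenpe and Kif20a were detected on no array, so these 7 members give no value. Of the 11 tested, 8 had negative and 3 positive log2 changes, with a median of -0.14 and a range of -0.62 to 0.34. 3 of 11 (27.3%) had both DKO arrays below both controls and 2 (18.2%) both above, against 22.8% and 22.7% of all genes. At an unadjusted p under 0.05 in limma's fit there were 0. Without DKO replicate 1 the median was 0.12, with 5 of 11 changes negative; without DKO replicate 2 it was -0.23. Leaving out control replicate 1 gave -0.077, and leaving out control replicate 2 gave -0.25.

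Cyclin A2 (Ccna2), which acts from S phase into mitosis, had the largest difference of the mitotic members. It read 9.61 and 9.75 in DKO livers, against 10.12 and 10.48 in controls (log2 change -0.62, SE 0.34, adjusted p = 0.48 by limma). Cdk1, its kinase partner, lay on the other side, with 10.57 and 10.20 in DKO livers, against 10.18 and 9.92 in controls (log2 change 0.34, SE 0.35, 95% confidence interval -0.48 to 1.15). Foxm1 read 8.35 and 8.71 in DKO livers, against 8.14 and 8.28 in controls (log2 change 0.32, SE 0.34). In Ccna2, Cdk1 and this Foxm1 probe the groups did not overlap, but in the second Foxm1 probe they did (log2 change 0.086, SE 0.37).

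Among the kinesin and spindle genes, the motor gene Kif11 read 7.54 and 7.64 in DKO livers, against 8.19 and 7.71 in controls (log2 change -0.36, SE 0.35). Tpx2, which activates Aurora A on the spindle, read 9.59 and 9.72 in DKO livers, against 10.20 and 9.73 in controls (log2 change -0.31, SE 0.35). In both, the DKO arrays sat just under control replicate 2. Aurka, the Aurora A kinase, read 9.97 and 9.53 in DKO livers, against 10.32 and 9.32 in controls (log2 change -0.069, SE 0.44). Plk1, the polo-like kinase of mitotic entry, read 10.93 and 10.85 in DKO livers, against 11.39 and 10.65 in controls (log2 change -0.14, SE 0.38). For these kinases the DKO arrays lay between the controls.

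Top2a read 10.07 and 10.94 in DKO livers, against 10.75 and 10.89 in controls (log2 change -0.32, SE 0.40). Bub1b, a spindle checkpoint kinase gene, read 7.16 and 8.15 in DKO livers, against 7.72 and 7.99 in controls (log2 change -0.20, SE 0.42). Both had DKO replicate 1 as the lowest and DKO replicate 2 as the highest array. Birc5, which encodes survivin of the chromosomal passenger complex, read 10.71 and 11.09 in DKO livers, against 10.75 and 11.13 in controls, and its 3 tested probes gave -0.11 to -0.028. Cdc20, an activator of the anaphase-promoting complex, read 11.23 and 11.56 in DKO livers, against 11.52 and 11.21 in controls (log2 change 0.034, SE 0.35; -0.047 under median scaling). Its 3 other tested probes gave 0.26, 0.27 and 0.57, and none passed. Without control replicate 2, the log2 change was further below 0 for Aurka (-0.57), Plk1 (-0.51), Kif11 (-0.60) and Tpx2 (-0.54). It was closer to 0 for Bub1b (-0.07) and Cdk1 (0.21) and had the other sign for Birc5 (0.15) and Cdc20 (-0.12).

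**Figure D3:**
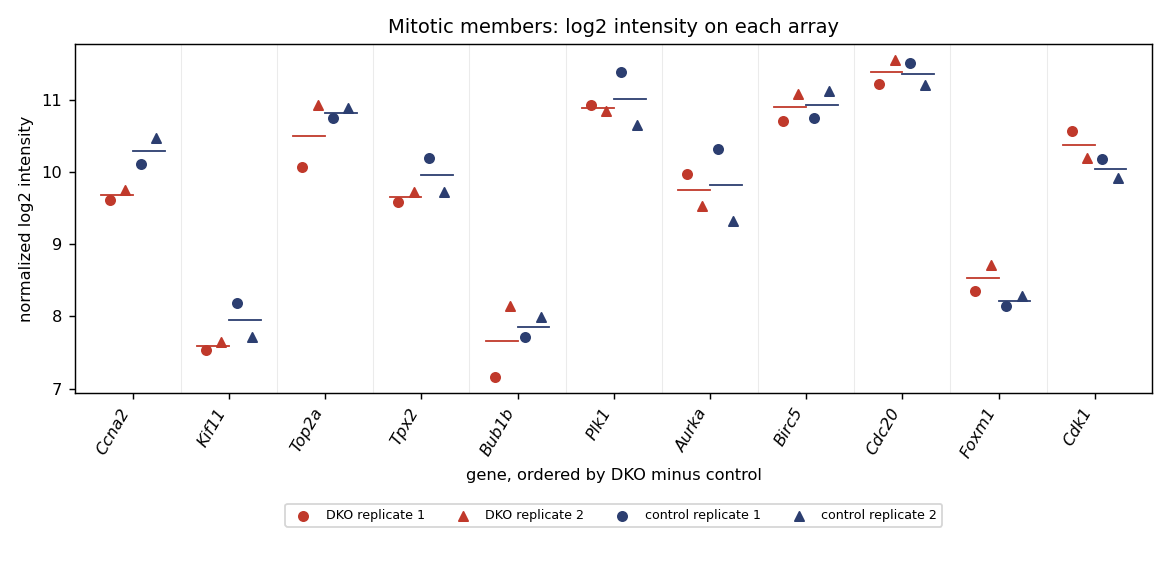
Normalized log2 intensity of the 11 tested mitotic genes (x axis, ordered by DKO minus control) on each array; points are arrays and short lines group means. Ccna2 at the left has both DKO arrays (9.61 and 9.75) below both controls (10.12 and 10.48), and Cdk1 at the right has both (10.57 and 10.20) above them (10.18 and 9.92).

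Set against each other on the same arrays, the S phase members were further down than the mitotic ones in DKO replicate 1. In DKO replicate 2 this depended on the measure, and control replicate 1 had a similar gap between the medians. Relative to the mean of the controls, the median S phase member stood at -0.90 in DKO replicate 1 and -0.14 in DKO replicate 2, against -0.092 and 0.092 in the controls. The median mitotic member stood at -0.23 in DKO replicate 1 and 0.12 in DKO replicate 2, against 0.13 and -0.13 in the controls. With each gene set against its own mean of 4 arrays, the S phase mean minus the mitotic mean was -0.37 and 0.027 in DKO livers, against 0.068 and 0.28 in controls. The DKO values were both below the controls, with most of the gap on 1 array, and no test was made of it.

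Genes of the same processes outside the member list gave medians on the same side. Of 36 further replication genes tested, 0 passed by limma, also at an unadjusted p under 0.05, with a median log2 change of -0.32 and 32 negative changes. 14 of them (38.9%) had both DKO arrays below both controls, against 22.8% of all genes, with the largest differences for Uhrf1, which maintains DNA methylation (-0.81, SE 0.36), and Dscc1, of a clamp loader (-0.77, SE 0.34). Of 36 further mitotic genes, 0 passed, while 1 reached an unadjusted p under 0.05 in limma's fit, against 16.1% of all genes. Their median was -0.21, with 29 negative changes. Here 13 (36.1%) had both DKO arrays below both controls, led by Cdc25b, the phosphatase that activates CDK1 (-1.28, SE 0.39, adjusted p = 0.16 by limma), and Nusap1, a spindle protein gene (-0.76, SE 0.39).

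The 16 tested genes of the retinoblastoma and E2F axis went both ways, with a median log2 change of 0.13, 7 negative and 9 positive changes, and 0 that passed by limma. 7 of them (43.8%) had both DKO arrays below both controls and 5 (31.2%) both above, against 22.8% and 22.7% of all genes. The largest positive change was that of E2f5 (0.85, SE 0.44). 4 of the 16 had an unadjusted p under 0.05 in limma's fit, all lower in DKO livers, against 16.1% of all genes. Tfdp2, a dimerization partner of E2F, read 9.24 and 8.77 in DKO livers, against 10.49 and 10.19 in controls (log2 change -1.33, SE 0.36, adjusted p = 0.12 by limma). E2f2 read 11.00 and 9.93 in DKO livers, against 12.03 and 11.38 in controls (log2 change -1.24, SE 0.46, adjusted p = 0.26 by limma). In both, and unlike most S phase members, DKO replicate 2 was the lowest array.

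**Figure D4:**
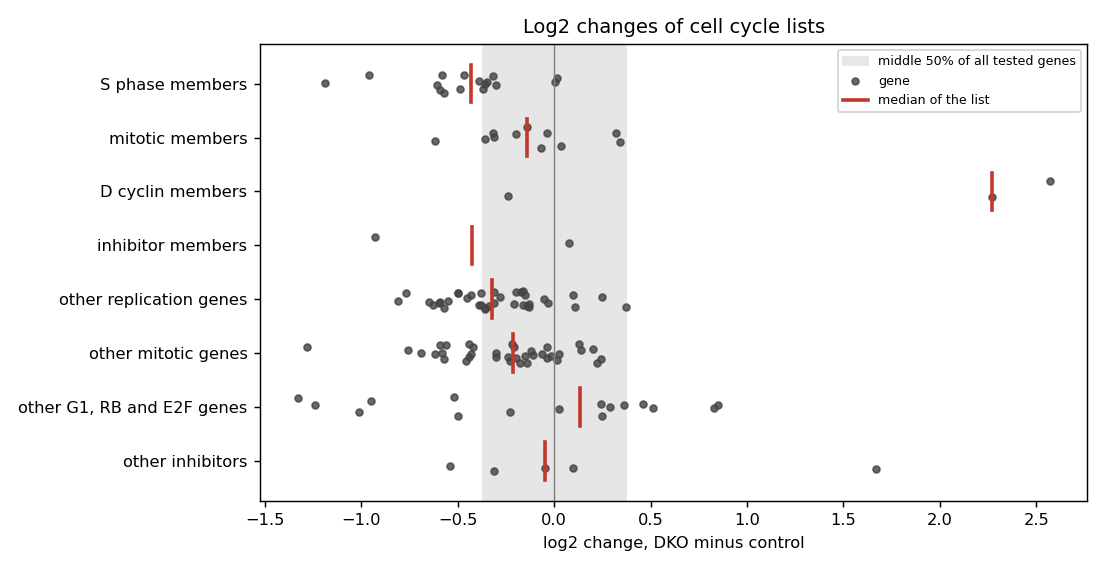
Log2 change, DKO minus control (x axis), of each tested gene (points) in the member groups and in further lists of the same processes, with list medians as red lines and the interquartile range of all tested genes shaded (-0.37 to 0.37). The medians of the S phase members (-0.43) and further replication genes (-0.32) lie left of 0, and Ccnd1 (2.27) and Ccnd2 (2.57) stand apart on the right.

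Among markers of the blood cells formed in the newborn liver, the erythroid ones read below the controls on both DKO arrays, while those of granulocytes overlapped. The log2 changes of all 20 tested erythroid markers, of 27 listed, were negative (median -1.08). Of these, 17 (85%) had both DKO arrays below both controls, against 22.8% of all genes. 15 had an unadjusted p under 0.05 in limma's fit, against 16.1% of all genes, and 0 passed after adjustment. Their summed normalized intensity was 119000 to 139900 in DKO livers and 192500 to 195100 in controls, with DKO replicate 2 the lowest array. The summed S phase intensity was 20700 to 33020 in DKO livers and 36360 to 37270 in controls, with DKO replicate 1 the lowest. Such sums mostly reflect the brightest probes, such as Hba-a1 (log2 15.90 to 16.01). With each gene set against its own mean, the erythroid mean was -0.33 and -0.72 in DKO livers, against 0.54 and 0.52 in controls. The S phase mean was -0.55 and 0.075 in DKO livers, against 0.22 and 0.25 in controls. Granulocyte markers had a median change of -0.50 (15 of 15 negative), with sums of 99020 to 107000 in DKO livers and 109900 to 165100 in controls. The mean log2 level of that list overlapped between the groups, at -0.12 and -0.40 in DKO livers, against -0.19 and 0.70 in controls, with control replicate 2 the highest. 4 of the 15 (26.7%) had both DKO arrays below both controls, near the 22.8% of all genes. B cell precursor markers had a median of -0.66 (7 of 8 negative, 0 past the threshold), with sums of 1080 to 1513 in DKO livers and 1825 to 2881 in controls. 4 of the 8 (50%) had both DKO arrays below both controls, against 22.8% of all genes. Megakaryocyte markers had a median of -0.79 (8 of 8 negative), and 4 of them (50%) had both DKO arrays below both controls. Macrophage markers went both ways, with a median of -0.054 (5 of 9 negative). Of these, 2 (22.2%) had both DKO arrays below both controls and 4 (44.4%) both above, against 22.8% and 22.7% of all genes. In both lists 0 passed by limma. The part of these blood cells in the values of the cell cycle members was not tested.

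**Figure D5:**
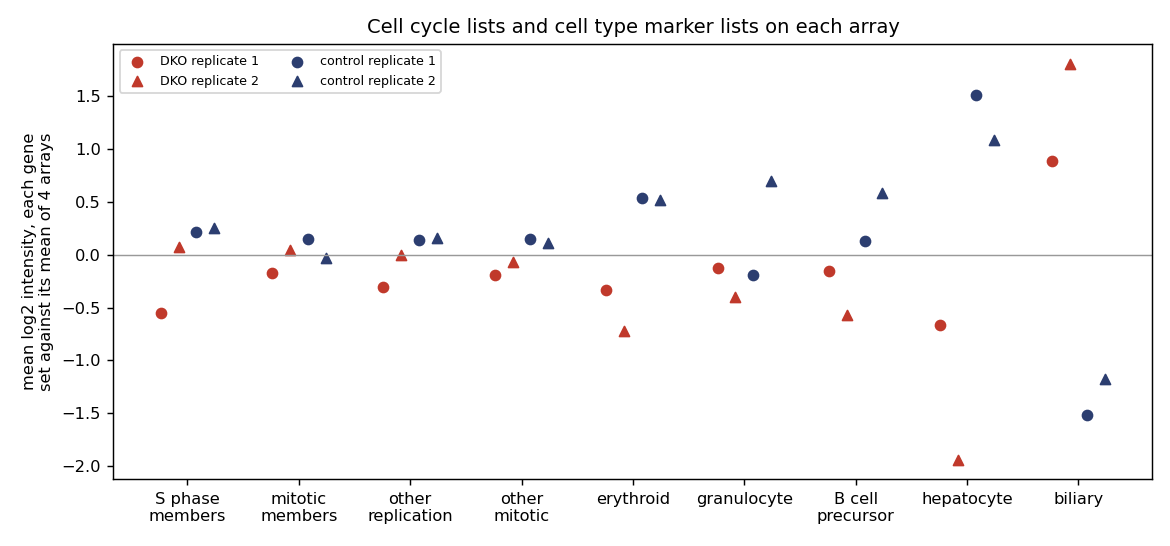
Mean log2 intensity of each list on each array (y axis), every gene set against its own mean of 4 arrays. The S phase members are lowest in DKO replicate 1 (-0.55, with 0.075 in DKO replicate 2), whereas the erythroid and hepatocyte markers are lowest in DKO replicate 2 (-0.72 and -1.94).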

How the data were processed

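Total liver RNA was hybridised to 4 Illumina MouseRef-8 v2.0 arrays (2 DKO, 2 control). The authors deposited linear probe intensity before normalization, and beside it a detection p-value for every array. The scanner software was not given in the sources used here. A deposited table of normalized intensity served as an alternative. Groups were taken from the titles. Intensities were corrected by the normexp method of limma 3.58.1 (R 4.3.3) (offset 16, negative controls taken from the detection p-values), quantile normalized and log2 transformed, where the offset shrinks changes at low signal. Testing took in the 13654 of 25697 probes whose detection p was under 0.05 on 2 or more arrays, by lmFit and eBayes without a block, with Benjamini-Hochberg adjustment at 0.05. The platform annotation gave 23978 probes 1 gene symbol and 1719 none (unnamed here). The tested probe of highest mean stood for its gene. The fit was tested on simulated data. Every tested member is named, with full values for members with an unadjusted p under 0.05, the 3 largest changes each way, D cyclins and inhibitors; other lists give genes that passed or the 2 largest changes. The members and lists were chosen with earlier results of these data known. Promoters came from RefSeq (GRCm38.p6); 9 members had no window used. Alternatives covered background, normalization, filters, variance model, block, probes, arrays left out and tests.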

Additional observations from a re-analysis of the deposited data

How the results depend on the processing

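The 2 arrays per group limit the precision. Across the alternatives, 507 values of single members kept their direction and side of the threshold, 28 turned in direction and 9 newly passed. Of these 9, 2 passed only at the unadjusted p under 0.05 of the paired t-test described below. The counts of genes higher and lower in DKO livers (166 and 160) were 63 and 74 without background correction, 79 and 79 from the deposited normalized values, 15 and 25 without the filter on dim probes and 92 and 89 with detection on all 4 arrays. Leaving out 1 array gave 64 to 288 higher and 55 to 250 lower. A paired t-test was also run, which the methods name for statistical analysis but not for the arrays. Pairing by replicate number was a choice made here. At an unadjusted p under 0.05 it gave 405 higher and 557 lower, with 1 member higher (Ccnd2) and 1 lower (Tk1). After Benjamini-Hochberg adjustment it gave 0 and 0, as did an unpaired equal-variance test. Deviations of same-numbered arrays correlated (r = 0.54 across tested probes, which are not independent), but the labels do not say what a number shares and there are only 2 pairs. With a replicate block, 660 genes were higher and 656 lower, and 2 members were higher (Ccnd1, adjusted p = 0.0013; Ccnd2, adjusted p = 0.00028, by limma) and 2 lower (Cdc6, adjusted p = 0.02; Rrm1, adjusted p = 0.046). Members called higher numbered 1 with the mean of a gene's probes (Ccnd1) and 0 to 1 when 1 array was left out. The median of the D cyclins (2.27) was 1.77 without background correction and 1.01 to 2.03 with 1 array left out. The S phase median was -0.90 to -0.14 and the mitotic median -0.25 to 0.12 with 1 array left out. Median scaling gave -0.047 for Cdc20, -0.033 for Mcm3 and -0.085 for Tyms, and the mean of the probes gave -0.076 for Tyms. With 1 array left out, the S phase genes that turned in direction ranged from -1.32 to 0.33 (Ccne1), -1.30 to 0.17 (Ccne2), -0.69 to 0.089 (E2f1), -1.45 to 0.29 (Mcm2), -0.92 to 0.95 (Mcm3), -1.04 to 0.33 (Mcm7), -1.03 to 0.25 (Rrm2) and -0.18 to 0.19 (Tyms). The mitotic genes did so from -0.57 to 0.43 (Aurka), -0.23 to 0.15 (Birc5), -0.70 to 0.29 (Bub1b), -0.13 to 0.20 (Cdc20), -0.51 to 0.24 (Plk1) and -0.75 to 0.12 (Top2a), and Cdkn1b from -0.15 to 0.30. The causes were not tested.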
